A study of Caenorhabditis elegans with 2 samples.

Results

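The peaks described here lie in the piRNA clusters of chromosome IV, the stretches of the Caenorhabditis elegans genome that hold most piRNA genes. They were taken from the pooled peak list on the ce11 build by position alone: a summit from 4.5 to 7 Mb (the first cluster) or from 13.5 to 17.2 Mb (the second cluster). This gave 978 of the 3335 peaks on chromosome IV and of the 20768 in the list, 491 in the first cluster and 487 in the second. No measured value entered the choice. At the left bound of the first cluster the last peak outside had a signal of 37.0 and the first inside 26.9, and at its right bound the values were 26.0 inside and 127 outside. For the second cluster they were 40.9 outside and 19.1 inside on the left, and 22.5 inside and 20.02 outside on the right.

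The list was made from chromatin immunoprecipitated with an antibody to GFP and sequenced (ChIP-seq). The tagged protein was UNC-86, a transcription factor of the POU homeodomain family that acts in neurons. Whole hermaphrodites of strain OP476 were used at the L1 stage, 6 hours after synchronization by starving bleached worms at that stage. They carry unc-119(tm4063) and the transgene wgIs476, from which UNC-86 is expressed with a tag that the labels call eGFP in one place and GFP-FLAG in another. There was 1 group of 2 biological replicates, so no conditions were compared. The labels do not say which regulatory sequence drives the transgene. In whole worms, a site bound strongly in few cells and a site bound weakly in many cells cannot be told apart.

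piRNAs are short RNAs of the germline that guide the Piwi protein PRG-1 to foreign transcripts. In this species most are made from tiny genes, each read by RNA polymerase II from its own start, and many carry an upstream element in a stretch rich in A and T, which varies from gene to gene around the core CTGTTTCA. A chromatin complex with PRDE-1, SNPC-4, TOFU-4 and TOFU-5 occupies the clusters in germ cells. UNC-86 is known for specifying neurons such as the touch receptor neurons.

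The clusters hold 14204 of the 15363 annotated piRNA genes (92.5%), each 21 bp long, with 2816 in the first cluster and 11388 in the second. Of the cluster genes, 5002 (35.2%) had CTGTTTCA on their own strand within 100 bp upstream. This counts exact matches, so genes with a variant of the element are among those without it. Its first base lay a median of 46 bp before the 5' end, with quartiles of 45 and 47 bp. The clusters were also poorer in protein-coding genes than the rest of the chromosome, with 152 against 207 per Mb, and in G and C bases, with 33.0% against 35.5%. The second cluster was the extreme, with 124 protein-coding genes per Mb and 32.3% G and C.

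The sequences below show what the strong peaks of the clusters look like, with 75 bp either side of the summit on the plus strand, and GAGAGA or its complement in capitals. The first pair are the strongest peak of each cluster, at Y17G9B.5 and rpl-20 (chrIV:4749991-4750141) and at ntl-11 (chrIV:15471538-15471688). Their nearest piRNA genes were 17658 and 2724 bp away. The second pair are the strongest outside promoters, at chrIV:4727954-4728104 in the first cluster and chrIV:15570856-15571006 in the second. The promoter pair hold no GAGAGA and no CTGTTTCA, while the pair outside promoters hold GAGAGA, with 1 match and 3 matches. The ntl-11 sequence does hold AGAGAG, a GA repeat of the same length that the exact search does not count.
Y17G9B.5 and rpl-20: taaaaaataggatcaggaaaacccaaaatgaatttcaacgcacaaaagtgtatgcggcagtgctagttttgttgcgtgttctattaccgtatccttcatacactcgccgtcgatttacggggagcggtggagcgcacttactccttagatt
ntl-11: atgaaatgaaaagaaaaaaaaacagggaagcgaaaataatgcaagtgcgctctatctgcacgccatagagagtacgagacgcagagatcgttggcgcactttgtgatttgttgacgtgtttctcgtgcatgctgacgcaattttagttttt
first cluster, outside promoters: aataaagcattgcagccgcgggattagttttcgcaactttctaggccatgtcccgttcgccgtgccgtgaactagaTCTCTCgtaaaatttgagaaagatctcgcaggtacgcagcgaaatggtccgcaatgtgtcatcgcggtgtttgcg
second cluster, outside promoters: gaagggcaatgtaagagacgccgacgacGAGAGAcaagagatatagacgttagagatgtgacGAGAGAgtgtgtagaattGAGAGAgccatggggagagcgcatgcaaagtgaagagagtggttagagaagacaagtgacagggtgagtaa

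The next sequences show piRNA genes. They are the genes beside the strongest 3 summits that lay within 100 bp of a piRNA 5' end and had CTGTTTCA within 75 bp. Each run is 81 bp in the direction of the gene, with CTGTTTCA and the piRNA itself in capitals. 21ur-15106 is at chrIV:15816530-15816610 on the minus strand, 21ur-14516 at chrIV:5953497-5953577 and 21ur-10801 at chrIV:5336438-5336518, both on the plus strand. They have 25.9%, 32.1% and 24.7% G and C, against 41.7% to 50.3% in the 4 strong peaks above.
21ur-15106: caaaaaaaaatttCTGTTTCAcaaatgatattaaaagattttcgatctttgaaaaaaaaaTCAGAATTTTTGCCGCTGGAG
21ur-14516: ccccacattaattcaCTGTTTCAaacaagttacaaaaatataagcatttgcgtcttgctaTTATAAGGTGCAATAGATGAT
21ur-10801: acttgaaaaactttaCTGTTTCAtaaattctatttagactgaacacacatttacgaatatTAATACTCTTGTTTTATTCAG

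The clusters held fewer peaks per Mb than the rest of chromosome IV, most of all in the second cluster. The pooled list gave 158 summits per Mb in the clusters (95% interval 148 to 168) against 209 in the rest (200 to 217), a ratio of 0.756. The replicate lists gave 239 against 300 for replicate 1 and 186 against 252 for replicate 2, and their ratios averaged 0.769 ± 0.0415 (SD, n = 2). Both replicates therefore showed the lower density, by more than they differed from each other. The first cluster had 196 summits per Mb (179 to 215), and its interval overlapped that of the rest. Its bounds take in a left edge nearly free of piRNA genes. The leftmost 3 bins of 100 kb hold 0, 1 and 8 piRNA genes, but 33, 27 and 32 peaks. The medians over its 25 bins were 118 piRNA genes and 19 peaks. The density of the first cluster without this edge was not computed. The second cluster had 132 (120 to 144), below every other stretch of the chromosome in all 3 lists. Left of the first cluster the density was 217, between the clusters 203, and in the short stretch right of the second cluster 221. Peaks lie beside each other on 1 chromosome and are not replicates, so no p-values were computed, and these intervals cover the counting of peaks only.

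Counted per gene, the density did not differ in the same way. There were 104 pooled peaks per 100 protein-coding genes in the clusters and 100.7 in the rest, a ratio of 1.03. The 100.7 averages unlike stretches, with 131 left of the first cluster, 86.5 between the clusters and 87.8 right of the second. Across bins of 100 kb on chromosome IV, protein-coding genes and peaks gave a Spearman's rho of 0.126, and of -0.130 in the rest, as a description. Base composition moved with the density. With each base classed by the G and C share of the 201 bp around it, the densities of the rest of the chromosome applied to cluster sequence gave 1059 summits, against the 978 found (ratio 0.923). The replicate lists gave 0.947 and 0.880. Optimal peaks had a density of 21.8 per Mb in the clusters against 29.4 in the rest, with 30.4 in the first cluster and 15.9 in the second. At equal base composition 135.6 of them would have lain in the 2 clusters together and 135 did, a ratio of 0.996. This ratio was not computed for each cluster. The part of gene density in the difference at equal base composition was not tested.

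**Figure D1:**
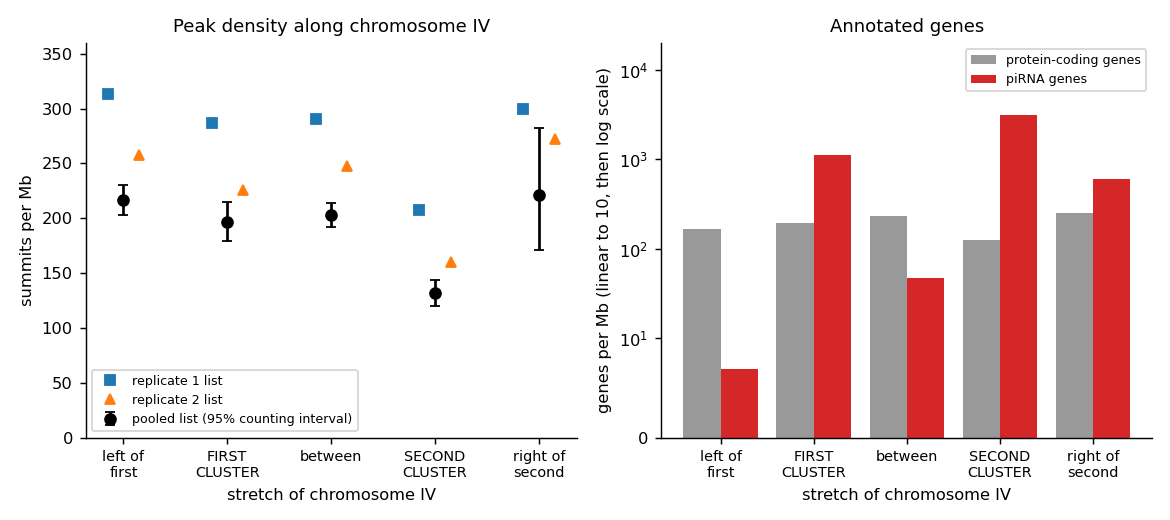
Left, summits per Mb in the 5 stretches of chromosome IV for the pooled list (black, bars are 95% intervals from counting) and each replicate list. Right, annotated protein-coding and piRNA genes per Mb on an axis that is linear to 10 and logarithmic above. The second cluster has the lowest peak density in every list, 132 per Mb in the pooled one.

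In strength the cluster peaks were close to the others on the chromosome. Their median signal, the authors' value per peak that ranks peaks within a list, was 25.2 with quartiles of 21.5 and 35.7. In the rest of chromosome IV the median was 26.2 with quartiles of 21.8 and 40.04. The replicate lists gave medians of 12.2 against 12.6 for replicate 1 and 13.3 against 13.7 for replicate 2, and the ratios averaged 0.968 ± 0.0029 (SD, n = 2). The small gap was thus present in both lists. Of the cluster peaks, 135 (13.8%, exact 95% interval 11.7 to 16.1) were in the optimal list, which the authors made by the irreproducible discovery rate procedure. The share was 14.1% (12.7 to 15.6) in the rest of the chromosome and 14.4% over all pooled peaks. The difference of -0.28 percentage points is within the intervals, and it was 1.70 among peaks above the median signal of the list. In the replicate lists the share overlapped by an optimal peak differed by -1.24 and -0.77 points. In the first cluster 15.5% were optimal and in the second 12.1%, again with overlapping intervals (12.4 to 19.0 and 9.35 to 15.3). Among the optimal peaks alone, the median signal was 139 in the clusters and 128 in the rest.

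Most cluster peaks were overlapped by peaks of both replicate lists. The pooled and optimal lists were made from these replicates, so the overlap describes the lists and is no independent check. A peak of both replicate lists overlapped 583 of the 978 (59.6%, 56.5 to 62.7), against 62.8% in the rest of the chromosome. Replicate 1 alone held 209, replicate 2 alone 161, and neither list held 25. All 135 optimal members were in both. Over the 583 shared peaks the signals gave a Spearman's rho of 0.650, as a description across peaks, beside 0.691 in the rest. A replicate peak can overlap more than 1 pooled peak. The pooled summit at 6646391 (signal 20.7) was thus paired with 174 and 192, the values also given to its stronger neighbour at 6646190.

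Taken over both clusters, the density gap was largest in intergenic sequence in all 3 lists, and exons did not share it. In intergenic sequence the pooled list had 110 summits per Mb in the clusters against 206 in the rest of the chromosome. Replicate 1 gave 172 against 283 there, and replicate 2 gave 139 against 241. Introns followed with 119 against 164 in the pooled list, 215 against 242 in replicate 1 and 154 against 211 in replicate 2. The gap in introns was thus smaller than in intergenic sequence in all 3 lists. Exons outside promoters went the other way, with 209 against 185 in the pooled list, 348 against 321 in replicate 1 and 243 against 232 in replicate 2. In promoter windows, from 1500 bp upstream to 500 bp downstream of a protein-coding 5' end, the density was 216 against 242 in the pooled list, 292 against 328 in replicate 1 and 240 against 287 in replicate 2. In replicate 1 the gap at promoters was thus larger than in introns as a difference in summits per Mb, but about equal as a ratio. By cluster, the pooled list had 168 summits per Mb of intergenic sequence in the first and 87.5 in the second. In introns it had 161 and 90.7, beside the 164 of the rest. Replicate 1 had 276 in the introns of the first cluster, above the 242 of the rest. Windows within 100 bp of a piRNA 5' end made up 38.7% of the intergenic and 36.9% of the intronic sequence of the clusters, but 11.6% of the exonic.

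Of all cluster summits, 440 (44.99%, 41.8 to 48.2) lay in promoter windows, which take up 32.8% of cluster sequence. In the rest of the chromosome 49.05% did (47.0 to 51.1), with 42.2% of the sequence. The difference of -4.06 points was -6.19 and -5.80 in the replicate lists, a mean of -5.997 ± 0.277 (SD, n = 2). Optimal peaks were unevenly spread over these classes. Promoters held 80 of the 135 optimal members, intergenic sequence 41, introns 12 and exons 2. Thus 1.40% of the 143 exon peaks were optimal, against 16.4% of the 250 intergenic ones and 18.2% of those at promoters. In the rest of the chromosome 0.565% of exon peaks were optimal.

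**Figure D2:**
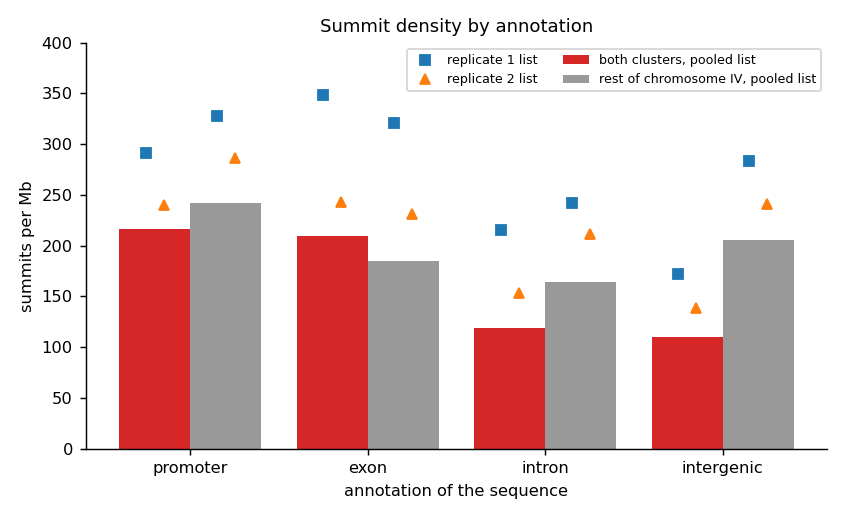
Summits per Mb of promoter, exon, intron and intergenic sequence in the clusters and in the rest of chromosome IV. Bars are the pooled list and points the replicate lists. Intergenic sequence differs most, with 110 summits per Mb in the clusters against 206.

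Around the piRNA genes themselves summits were sparse. Within 100 bp of a piRNA 5' end lay 139 of the 978 summits (14.2%, 12.1 to 16.6), while these windows cover 29.8% of the clusters. The density was 75.3 summits per Mb inside (63.3 to 88.9) and 193 outside (180 to 206), a ratio of 0.390. Replicate 1 gave 139 against 282 and replicate 2 gave 105 against 221. Their ratios averaged 0.484 ± 0.0116 (SD, n = 2), so the gap was present in both lists and larger than their spread. It was present in each cluster, with 111 against 214 in the first and 64.7 against 173 in the second. With promoter windows left out, the densities were 73.3 and 158, a ratio of 0.465.

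Within 300 bp the dip followed the distance to the piRNA start. The 100 bp upstream had 69.9 summits per Mb (53.9 to 89.0) and the 100 bp downstream 80.2 (62.9 to 100.9). From 100 to 200 bp away the values were 100.6 upstream and 120 downstream, and from 200 to 300 bp 161 and 211. From 300 to 2000 bp they did not rise steadily, with 241, 170 and 174 upstream and 193, 218 and 189 downstream. Beyond 2000 bp they were 269 and 226. The replicate lists had their lowest value in the 100 bp upstream too, with 117 and 99.9. G and C content had the same minimum, at 26.3% in the 100 bp upstream against 36.4% beyond 2000 bp, and so had the share of sequence in promoter windows, at 23.8% against 45.1%.

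**Figure D3:**
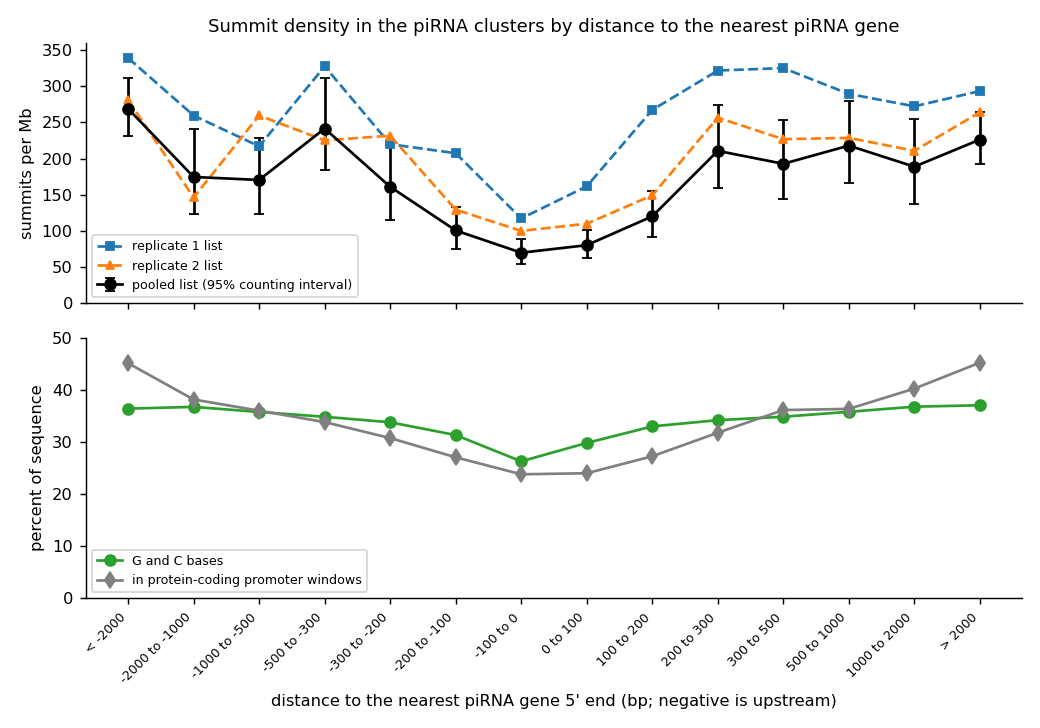
Top, summits per Mb of cluster sequence by distance to the nearest piRNA 5' end, negative upstream, for the pooled list with 95% counting intervals and for each replicate list. Bottom, the percent of G and C bases and the percent of sequence in promoter windows at the same distances. Density and G and C content are both lowest in the 100 bp upstream, at 69.9 per Mb and 26.3%.

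At equal base composition the densities of piRNA windows and other cluster sequence lay much closer together. Within the clusters the density outside piRNA windows went from 26.9 summits per Mb where G and C made up less than 25% of the 201 bp to 386 where they made up at least 40%. In the class from 25% to 30%, which holds the most piRNA window sequence, the density was 56.1 inside and 78.8 outside. From 35% to 40% it was 235.3 inside and 227 outside. Applying the outside densities to the base composition of the windows gave 174 summits against the 139 found, a ratio of 0.800, with 0.837 in replicate 1 and 0.876 in replicate 2. With promoter windows left out as well, the ratios were 0.942 in the pooled list, 0.911 and 0.973. All 6 ratios were below 1, but they share data and are not separate results. The pooled list was made from both replicates, and the sequence outside promoters is part of the whole. No intervals were computed for them. Outside promoters the pooled list had 103 summits where 109 would have lain. There the class from 35% to 40% had 247 per Mb inside against 187 outside in the pooled list, while every other class was lower inside. The replicate lists did not share this pattern. Replicate 1 was higher inside from 35% to 40% (416 against 336) and from 25% to 30% (126 against 121). Replicate 2 was lower inside from 35% to 40% (236 against 244). It was higher inside from 30% to 35% (163 against 148) and at 40% or more (390 against 344).

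**Figure D4:**
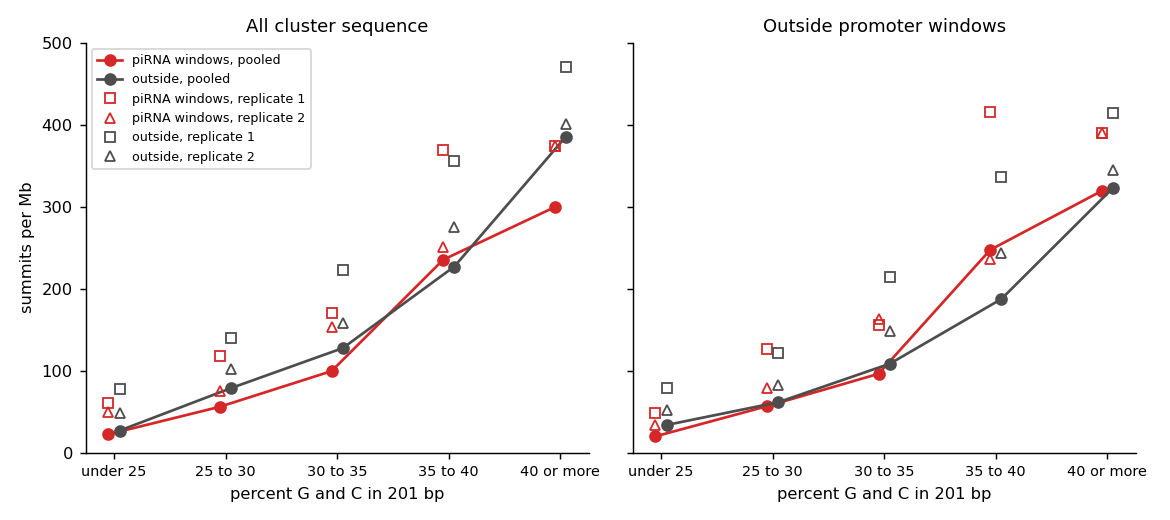
Summits per Mb of cluster sequence by the percent of G and C in the 201 bp around each base, inside (red) and outside (grey) windows of 100 bp either side of piRNA 5' ends. Filled points are the pooled list and open points the replicates. Density climbs with G and C in both, from 26.9 to 386 per Mb outside the windows in the left panel.

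Strong peaks were rarer still at piRNA genes. Of the 139 summits in piRNA windows 4 were in the optimal list (2.88%, 0.790 to 7.20), against 131 of the 839 other members (15.6%, 13.2 to 18.2) and 14.4% of all pooled peaks. This amounts to 2.17 optimal summits per Mb (0.590 to 5.55) inside the windows and 30.1 (25.2 to 35.7) outside, a ratio of 0.0720. At equal base composition 13.8 optimal summits would have lain in the windows, and outside promoters 6.41 where 3 were found. These counts are small. In the second cluster none of 92 summits in piRNA windows was optimal, which allows a share of up to 3.93%, and the strongest had a signal of 55.3. The median signal in piRNA windows was 23.3, against 26.1 for other members, and both replicates held 48.9% of these peaks, against 61.4% of the others.

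**Figure D5:**
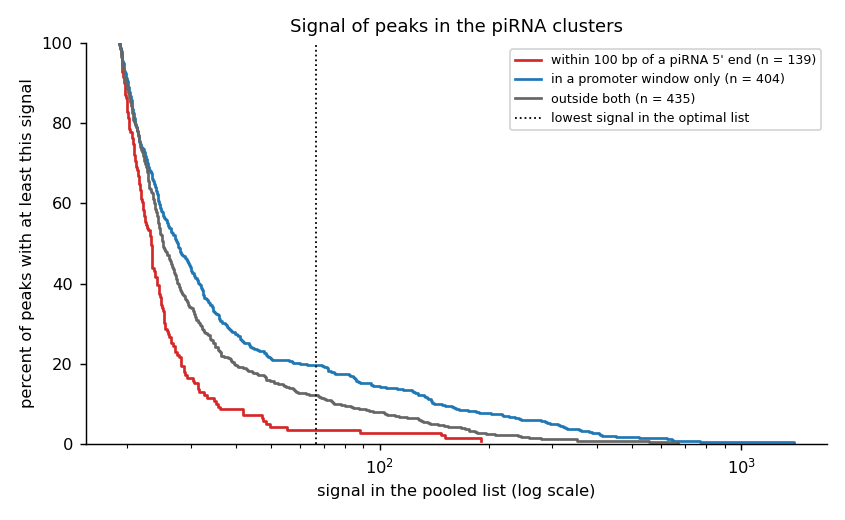
Percent of cluster peaks with at least the signal on the x axis (log scale, pooled list), for summits within 100 bp of a piRNA 5' end, in promoter windows only, and outside both. The dotted line is the lowest signal of the optimal list, 66.4. Of the 139 peaks at piRNA genes, 4 lie beyond it.

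Counted by gene, 205 of the 14204 cluster piRNA genes (1.44%, 1.25 to 1.65) had a summit within 100 bp. Over all chromosomes the share was 1.54%, a figure made up mostly of the cluster genes themselves. Outside the clusters a summit lay at 11 of 510 piRNA genes on the rest of chromosome IV (2.16%, 1.08 to 3.83) and at 21 of 649 on other chromosomes. In the longer replicate lists 2.51% and 2.03% of cluster genes had one, over 1.5 times the pooled share in the list of replicate 1. Of genes with CTGTTTCA upstream 100 of 5002 had a summit (2.00%, 1.63 to 2.43), and of those without 105 of 9202 (1.14%, 0.934 to 1.38). Over both clusters, optimal summits lay at 4 genes, all without an exact CTGTTTCA upstream. In the first cluster the shares were 3.45% (2.46 to 4.68) with it and 1.54% (1.01 to 2.25) without. In the second cluster alone the shares were closer, at 1.58% (1.21 to 2.02) and 1.05% (0.833 to 1.31). Neighbouring piRNA genes can share a summit, with up to 5 starts within 100 bp of 1 summit, so genes are not independent.

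The 4 optimal peaks at piRNA genes all lay in the first cluster, each with 1 piRNA start in reach. The strongest had a signal of 191 (91.7 in replicate 1, 93.4 in replicate 2). It lay 86 bp from 21ur-11261, but also 27 bp upstream of hda-6, which encodes a histone deacetylase. Next came the peaks 90 bp upstream of 21ur-10481, with 152 (72.7 and 75.7), and 13 bp upstream of 21ur-13445, with 147 (67.1 and 79.0). The last, 97 bp past the start of 21ur-5229 with 87.9 (32.2 and 54.0), lay in a transfer RNA gene. None of these 4 had an exact CTGTTTCA within 75 bp of the summit. The sequence printed for 21ur-13445 does hold CTGTTTCT, which differs only in the last base, upstream of the piRNA start. Such variants were not searched for. The peak at 21ur-13445, chosen after its values were seen because its summit is the nearest of the 4 to a piRNA start, has 35.8% G and C and GAGAGA as its complement near its right end in capitals (chrIV:6954649-6954799, plus strand).
21ur-13445: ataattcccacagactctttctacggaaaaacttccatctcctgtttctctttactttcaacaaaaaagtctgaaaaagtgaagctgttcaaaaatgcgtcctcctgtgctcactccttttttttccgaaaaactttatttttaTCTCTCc
The summits at the CTGTTTCA genes printed above were weaker. The one 89 bp upstream of 21ur-15106 had 55.3 (23.0 and 30.9), that at 21ur-14516 47.6 (8.91 and 26.5) and that at 21ur-10801 41.9 (18.3 and 14.2). All 3 are below the lowest optimal signal, 66.4. The peak at 21ur-14516 overlapped a stronger optimal peak with its summit at 5953267 (signal 105). One more summit outside promoters, 56 bp from 21ur-12837, had 49.5 and lay beside a stronger peak near sfrp-1.

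At the summits of cluster peaks CTGTTTCA was less frequent than beside them. It lay within 75 bp of 61 of 978 summits (6.24%, 4.80 to 7.94), in 9.87% of flank windows centred 500 bp away, and in 11.1% of consecutive windows of 151 bp across the clusters, counting both strands. The ratio of summits to flanks was 0.632 in the pooled list and averaged 0.748 ± 0.0254 over the replicate lists (SD, n = 2). Both replicates showed it. In the rest of chromosome IV the sequence was rare, at 0.594% of summits and 0.997% of flanks, with a like ratio of 0.596. Among optimal members 1 of 135 had it, against 25 of 270 flank windows. The 139 summits in piRNA windows differed, with 44 (31.7%, 24.0 to 40.1) against 16.5% of flanks, which by their place hold fewer piRNA starts. The reversed sequence ACTTTGTC was at 0.613% of summits and of flanks.

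GAGAGA was the commonest of the sequences searched, at shares close to those of other peaks. It lay at 172 of 978 summits (17.6%, 15.3 to 20.1) and in 7.26% of flanks, against 16.2% and 8.51% in the rest of the chromosome and 15.8% over all pooled peaks. Of optimal members 40% had it (31.7 to 48.8) and of optimal peaks in the rest 39.2%. At the summits in piRNA windows it was at 8 of 139 (5.76%, 2.52 to 11.03), near the 7.19% of their flanks. AATGCAT, part of a site that UNC-86 and MEC-3 bind together in touch neurons, was at 17 of 978 summits (1.74%, 1.02 to 2.77) and in 2.04% of flanks. In the rest of the chromosome it was at 2.59% and 1.97%, and at 5 of the 135 optimal members (3.70%, 1.21 to 8.43).

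Of the 10 strongest peaks of the first cluster 8 lay in promoter windows. Between Y17G9B.5 and rpl-20, a ribosomal protein gene, the signal was 1396 (631 in replicate 1, 761 in replicate 2), rank 3 of the whole list. Far behind came 624 (270 and 345) upstream of sqd-1, which encodes an RNA-binding protein, and 450 (195 and 265) between F29B9.11 and jmjd-1.2, the gene of a histone demethylase. Replicate 2 had the higher value at each of these, and over the members in both lists its values were higher by a median of 0.20 on the log2 scale. Signals of 406 to 357 followed between ipla-6 and mif-4 and upstream of W03F8.4, hil-7, a linker histone gene, and Y73B6BL.29, for which Y73B6BL.12 is the divergent gene. The last 3 of the 10 were the intergenic peaks nearest to K08F11.1 (352) and sfrp-1 (350), outside promoter windows, and the peak 383 bp upstream of sar-1 (324), which encodes a GTPase of secretory vesicles. Of the 10, the peak nearest to sfrp-1 was the closest to a piRNA gene, at 256 bp, and the others were over 1000 bp away. The peaks at rpl-20, F29B9.11, K08F11.1 and sar-1 lay in the left edge of the cluster, which holds few piRNA genes. Their nearest piRNA genes were 17658, 30219, 1699 and 75938 bp away.

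In the second cluster 8 of the 10 were likewise in promoter windows. At ntl-11, which encodes a subunit of the CCR4-NOT deadenylase, the signal was 770 (356 and 418), with a further peak of 521 (220 and 300) on the side of its divergent neighbour Y73F8A.27. The peak at 15570931, between Y105C5A.1 and pqn-76, had 669 (263 and 406) and lay 6504 bp from the nearer 5' end and 304 bp from a piRNA gene. Upstream of dld-1, the gene of dihydrolipoamide dehydrogenase, the signal was 647 (285 and 361), inside a non-coding RNA gene. Between WBGene00185102 and its divergent neighbour it was 643 (300 and 345), and at this summit both GAGAGA and AATGCAT occurred. A broad peak from 14032942 to 14034107, 10475 bp from the nearest 5' end (Y37A1B.7), had 554. The rest of the 10 were at the mitochondrial ribosomal gene mrps-7 and its neighbour Y57G11C.3 (412), rpl-29 (405), lin-66 (379) and between tsr-2 and set-26 (329). All 20 peaks were optimal, and none had CTGTTTCA within 75 bp.

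Outside promoter windows the 5 strongest peaks of each cluster were all optimal and all intergenic except 1. In the first cluster the peaks nearest to ceh-48, a homeobox gene, and lip-1, a MAP kinase phosphatase gene, had 279 and 245, and one nearest to C01G5.7 had 186. In the second, a pair upstream of rho-1, the gene of a small GTPase, had 305 and 241, 3450 and 2777 bp from its 5' end. A peak in an intron of Y105C5A.15 had 259. GAGAGA lay at 8 of these 10 summits, though the nearest piRNA genes were only 201 to 304 bp away at 4 of them.

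Of the 941 protein-coding genes in the clusters 356 had a pooled summit in a promoter window (37.8%, 34.7 to 41.0), against 41.8% of all protein-coding genes. An optimal summit was found at 110 (11.7%, 9.71 to 13.9), against 13.1% of all. The second cluster was the lower of the pair on both counts, with 35.7% and 10.5% against 39.8% and 12.9%. Ribosomal protein genes led, with 5 of 5 in the pooled and 4 of 5 in the optimal list, the strongest at rpl-20. Over all chromosomes 76 of 78 ribosomal protein genes had a pooled summit. Of 83 chemoreceptor genes 10 had a pooled and 1 an optimal summit, srw-95 with 71.3. F-box genes had 2 and 1 of 7 (fbxa-83, 72.0). Collagens had 4 of 6, none optimal (col-110, 31.9), major sperm protein genes 1 of 9 (msp-55, 23.6) and nuclear hormone receptors none of 5. The clusters hold no histone gene of the his series.

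Of the neuronal and signalling genes named mec, unc, lin, egl, ceh, lim, flp, nlp or ins, 15 lie in the clusters, 11 with a pooled and 2 with an optimal promoter summit. In the rest of the chromosome it was 22 and 8 of 40. Over all protein-coding genes the shares were 41.8% and 13.1%, so the optimal count was near the background. The optimal pair were lin-66, a gene of developmental timing, with 379 (163 and 216) 349 bp upstream, and unc-44, which encodes the ankyrin of axons, with 111 (45.3 and 70.3) 1221 bp upstream. The next highest were 30.1 at lin-45, the Raf kinase gene, and 29.7 at unc-77, both far below the lowest optimal signal.

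The genes of the piRNA pathway had peaks at shares not far from those of all genes. Of 20 symbols 18 were matched, none of them on chromosome IV. tofu-3 was not, and prg-2 is a pseudogene in the RefSeq table. A pooled promoter summit was found at 9 of the 18, against 41.8% of all genes, and an optimal one at 3, against 13.1%. The optimal ones were tofu-1, a piRNA biogenesis gene, with 161 (57.6 in replicate 1, 104 in replicate 2), him-17, a chromatin factor gene of germ cells, with 91.3 (44.2 and 47.5), and snpc-4 with 77.0 (36.0 and 46.1). In each the signal of replicate 2 was the higher, as it was in the median over cluster members in both lists. How signal was scaled in each list is unknown, so this is no trait of these genes. Lower signals lay at tost-1 (48.95) and at henn-1 (39.8), the latter for methylating piRNAs. They also lay at tofu-5 (25.5), prde-1 (23.7) and tofu-6 (22.2), and at unc-130 (21.1), a forkhead factor gene. prg-1, tofu-2, tofu-4, tofu-7, attf-6, parn-1, pid-1, erh-2 and hrde-1 had no pooled promoter summit. The median of the strongest signal was 39.8 over the 9, against 33.9 over all genes with a promoter summit.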

How the data were processed

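The data were lists of ChIP-seq peaks of 2 biological replicates of 1 group. Per the deposited listing, each replicate list and the pooled list are relaxed lists of peaks with background, made from 1 or both alignments and a control, and the optimal list came from the irreproducible discovery rate procedure. No label or header names the peak caller, its threshold or how signal was scaled. The signal of each peak is the authors' deposited value. It was used within a list, apart from remarks on which replicate had the higher value. Read depth is unknown. The control was not analysed here.

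Summits are the deposited offset from the peak start. The ce11 lists were set against the WBcel235 assembly and the Ensembl annotation of release 115. A pooled peak was optimal when the optimal list held the same coordinates. Replicate values are those of the overlapping peak (at least 1 bp) with the nearest summit, a rule set after values were seen, since the strongest overlapping peak could be a neighbour. Intervals are 95%, exact binomial (Clopper-Pearson) for shares and Poisson for densities, and cover counting only. Densities at equal base composition weight 5 classes of G and C content over 201 bp. Python 3.11.15, numpy 2.4.6, pandas 2.3.3 and scipy 1.17.1 were used, and the steps were tested on simulated data. No test between groups was possible. The genes named are those nearest to the 10 strongest peaks of each cluster, piRNA genes at the 5 strongest summits there outside promoters, the pathway list, and the strongest of each gene class. Members, lists and sequences were chosen with earlier results of these data known.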

Additional observations from a re-analysis of the deposited data

How the results depend on the processing

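The direction of the lower peak density in the clusters (ratio 0.756) held in every setting except per protein-coding gene, where it was 1.03. Without either replicate it was 0.740 to 0.798, with bins of 100 kb holding at least 20 piRNA genes in place of the bounds 0.712, among peaks above the median signal 0.699, at equal base composition 0.923, for the first cluster alone 0.941 and for the second 0.631. The difference in optimal share (-0.28 points) was -1.24 to -0.77 without either replicate, -1.08 against the stretch between the clusters, -1.82 on ce10 and 1.70 among peaks above the median signal, so its sign depended on that setting. The ratio of median signals (0.960) was 0.966 to 0.970 without either replicate, 0.974 with bins and 0.944 against the stretch between the clusters. The difference in promoter share (-4.06 points) was -6.19 to -5.80 without either replicate, -5.10 with bins, -6.95 against the stretch between, -4.39 above the median signal and -5.18 with promoters cut to 1000 bp upstream and 250 bp downstream.

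The share of piRNA genes with a summit (1.44%) was 2.03% to 2.51% without either replicate, 0.366% above the median signal, and 2.89% and 0.669% with windows of 200 and 50 bp. The ratio of densities inside and outside piRNA windows (0.390) was 0.475 to 0.492 without either replicate, 0.406 with bins, 0.205 above the median signal, 0.402 with 200 bp, 0.465 without promoters, 0.800 at equal base composition, 0.942 with both, and 0.0720 for optimal peaks. The CTGTTTCA ratio (0.632) was 0.730 to 0.766 without either replicate, 0.410 above the median signal, 0.709 within 30 bp and 0.682 with flanks 1000 bp away. The share held by both replicates (59.6%) was 89.1% above the median signal and 51.1% at 50% reciprocal overlap, and leaving out a replicate gives it no value. Settings at equal base composition, for single clusters and for optimal peaks were chosen after seeing the data. The cause of these shifts was not tested. How many reads lie behind a peak, at piRNA genes or elsewhere, is not in these lists.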

Other observations

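Other non-coding genes of the clusters differed among themselves. A pooled summit within 500 bp of the 5' end was found at 19 of 41 transfer RNA genes in the clusters (46.3%) and at 20 of 30 in the rest of chromosome IV (66.7%). For small nucleolar RNA genes it was 9 of 18 and 21 of 41, and for optimal summits 3 of 18 and 13 of 41. For the genes of spliceosomal and other small nuclear RNAs it was 2 of 16 against 11 of 25, and none of the 16 had an optimal summit. miRNA genes had 4 of 19 against 8 of 31, and pseudogenes 13 of 175 against 26 of 206. The classes that went the other way were those annotated as ncRNA, with 120 of 321 (37.4%) against 254 of 737 (34.5%), and lincRNA, with 2 of 9 against 3 of 17. Most of these counts are small and carry wide errors, and neighbouring genes can share summits.

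Within the clusters, bins of 100 kb with more piRNA genes held somewhat fewer peaks. Across the 37 bins of the second cluster Spearman's rho between piRNA genes and peaks was -0.21 in the pooled list, -0.37 in replicate 1 and -0.15 in replicate 2, and across the 25 bins of the first cluster -0.33, -0.16 and -0.24. With the percent of G and C bases the pooled rho was 0.49 and 0.55. With protein-coding genes it was 0.13 and -0.13. Bins are neighbours on 1 chromosome and share libraries, so these are descriptions. In the second cluster the 13 bins with the most piRNA genes averaged 408 of them, 12.1 peaks and 9.08 protein-coding genes, and the 12 with the fewest averaged 195, 14.8 and 16.2.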
